A study of Mus musculus with 4 samples.

Results

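The cells described here are neurons of the mouse dorsal root ganglion (DRG) that carried transcripts of the somatostatin receptor gene Sstr2 together with at least 3 of the genes Cartpt, Trpa1, Ccl21a, Npy1r and Kcnk3, that had no unique molecular identifier (UMI, a count of 1 captured transcript) of the vasopressin receptor gene Avpr1a, and that lay at or under a low limit on Sprr1a (UMIs per 10000). They numbered 2316 of the 17836 cells with at least 1500 genes, at least 5000 UMIs and at most 10% mitochondrial UMIs, and of the 23691 deposited cells. The rule used measured values of these 8 genes in every library, so their levels in the members are a description. Sprr1a is a gene switched on in axotomized sensory neurons, so the limit kept the members to cells low in that injury transcript.

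The cells came from PirtEGFPf mice on a C57BL/6 background, 7 to 8 weeks old, in which a membrane-targeted EGFP driven from the Pirt locus marks most DRG neurons and was used to sort them. All mice had bilateral surgery at the sciatic nerve, either chronic constriction injury (CCI), in which ligatures are tied loosely around the nerve, or sham surgery, and lumbar DRGs were taken on day 7. Each of the 4 libraries, named here by sex and surgery, pooled 20 DRGs from 5 mice. Values in 4 libraries are given below for the sham libraries first and the CCI libraries after them, with the male library ahead of the female one in each pair. Each surgery therefore had 2 pooled libraries that also differed in sex, and because littermates of both sexes shared a surgery, litter and surgery cannot be told apart.

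DRG neurons carry touch, heat, cold, itch and pain signals from the periphery to the spinal cord, and peptidergic nociceptors among them release substance P, encoded by Tac1, and calcitonin gene-related peptide, encoded by Calca. TRPA1 is a cation channel opened by reactive irritants. NPY1R and SSTR2 are receptors for neuropeptide Y and somatostatin that couple to inhibitory G proteins, KCNK3 is a two-pore leak potassium channel, and Cartpt encodes the precursor of a secreted peptide.

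The members numbered 650, 1137, 241 and 288 cells, with medians of 38239, 28234, 42651 and 34981 UMIs per cell and summed UMIs from 10400485 to 33599937 per library. Levels are given as counts per 1e6 of these sums (CPM). Libraries shared between 215 and 513 cell barcodes per pair, and 27, 9, 16 and 1 members carried a barcode that also occurred in another library. Members just inside the Sprr1a limit had at most 1.47 UMIs of Sprr1a per 10000, and the closest cell outside it that met the rest of the rule had 1.74. Exactly 3 of the 5 counted genes were found in 51.5%, 48.8%, 40.7% and 34% of members, and all 5 in 14.9%, 18.4%, 27.8% and 37.2%. Cells with all 5 genes thus made up more of the members in both CCI libraries than in both sham libraries. The make-up of the members by the rule therefore differed between the surgeries compared below. A single UMI of Sstr2 was found in 20.5% to 27.8% of the members of a library.

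The marker genes were detected unevenly. Sstr2 was present by rule, Npy1r was found in 99.3% to all of the members of a library and Cartpt in 93.8% to 96.0%. Kcnk3 was found in 91.3% to 94.9%. Trpa1 was found in 41.2%, 46.4%, 57.7% and 69.4% of members and in 36.6%, 34.1%, 39.2% and 41.6% of the other cells at or under the Sprr1a limit, whose median depths were higher in every library. After each cell was thinned to 5000 UMIs, Trpa1 was found in 14%, 18.6%, 23.7% and 39.2% of members against 9.20%, 8.93%, 11.4% and 15.2% of the other cells. Sstr2, Cartpt and Npy1r were thus present in at least 93.8% of members, while Trpa1 had no UMI in many of them and was also found in many other cells.

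The members expressed the peptidergic genes. Calca was at 14747, 14878, 14006 and 14988 CPM in the members, against 6791, 7507, 7047 and 7763 CPM in the other cells. Tac1 was at 5755, 6218, 5824 and 7090 CPM in members, and Trpv1, the capsaicin-gated heat channel, was found in at least 97.2% of the members of every library. Of the marker lists of other neuron classes, NP1-like, NP2-like, NP3-like, cLTMR-like, NF-like and PEP5-like markers summed to less in members than in the other cells in every library. The itch-class peptide gene Sst had a UMI in at most 0.92% of members, and Mrgprd, a receptor gene of nonpeptidergic neurons, had one in 4.77%, 4.05%, 1.24% and 1.39%. PEP2-like markers did not follow: their sum was 157, 160, 116 and 91.0 CPM in members and 81.5, 108, 121 and 108 CPM in the other cells, so it was higher in the members of both sham libraries. PEP1-like markers did not follow either. Their sum was 12.9, 13.8, 22.5 and 27.1 CPM in members and 17.3, 17.3, 25.4 and 22.5 CPM in the other cells, so it was higher in the Female-CCI members.

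**Figure D1:**
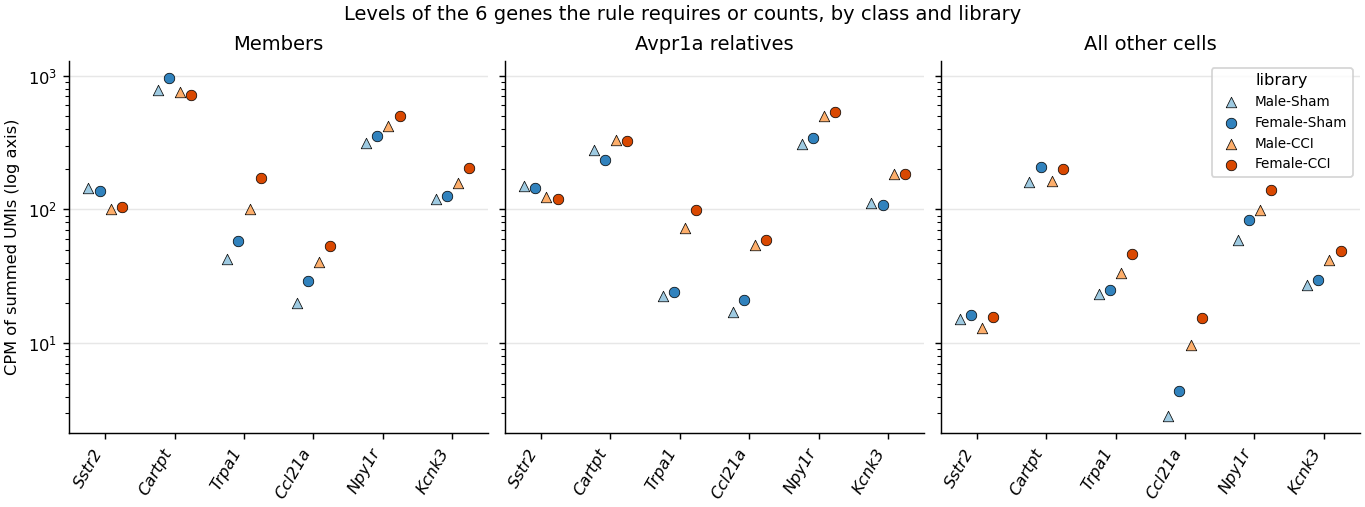
Levels of the 6 genes that the rule requires or counts, as CPM of summed UMIs on a log axis, in the members, in the neurons that carried Sstr2 and Avpr1a, and in all other cells at or under the Sprr1a limit, with 1 point for each library (triangles male, circles female). Trpa1 lay between 42.5 and 170 CPM in members and between 23.3 and 46.9 CPM in all other cells.

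Among genes that were higher in members and that the rule did not use, Car8, a carbonic anhydrase-related protein that binds the inositol trisphosphate receptor, had the highest lowest ratio to the other cells. Its level in members was 243, 261, 295 and 354 CPM, and in the other cells it was 59.9, 64.1, 67.7 and 80.8 CPM, a ratio of up to 4.34, with 1 CPM added, in each library. The next genes by their lowest ratio were the antiproliferative gene Btg2, the secreted glutathione peroxidase gene Gpx3, the orphan receptor gene Gpr149, Arhgap15, Ctnnd2, Ptprd, Hes1, Atp2b4, Naf1 and Adcyap1, each at least 2.71 times higher in members in every library. Adcyap1, which encodes the neuropeptide PACAP, was at 550, 558, 545 and 599 CPM in members and at 139, 171, 179 and 221 CPM in the other cells. Adcyap1 was detected at least as often in the Avpr1a-carrying neurons described below as in members. None of these genes, Car8 included, was among those listed below that set members highest above the Avpr1a-carrying neurons. In the opposite direction, Tmem45b, Ctxn3, Paqr5, Ppm1j, Ppp1r1a, Synpr, Acpp, Rarres1, Gfra2 and Casz1 were at least 5.42 times lower in members in every library. Several of these are genes of nonpeptidergic neurons, such as Gfra2, a receptor subunit for neurturin, and Acpp, the acid phosphatase long used to mark those cells. No test was made of these levels, because the members were chosen by expression.

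The members were also set against the neurons with UMIs of both Sstr2 and Avpr1a under the same limit, which numbered 278, 454, 149 and 227 cells and are called Avpr1a relatives here. Of these, 139, 263, 69 and 105 had a single Avpr1a UMI. The relatives shared the peptidergic genes. In thinned cells, Adcyap1 was found in 90.6%, 90.5%, 88.0% and 89.2% of members and in 91.7%, 92.1%, 91.9% and 94.3% of relatives. Trpv1 was found in 58.6%, 58.5%, 62.2% and 63.2% of thinned members and in 57.6%, 55.5%, 55.0% and 57.7% of thinned relatives. Calca was found in all thinned relatives, and Tac1 in at least 99.1% of them in each library. Dcn, which encodes the small matrix proteoglycan decorin, was at 132, 134, 92.3 and 69.8 CPM in members and at 16.2, 27.4, 16.4 and 12.2 CPM in the relatives. Dcn is itself one of the PEP2-like markers, whose sum in the relatives was 23.5, 33.5, 34.9 and 29.6 CPM, and the part of PEP2-like cells that meet the rule in this contrast was not tested. Prkcb, Sphkap, Cartpt, Alcam, Atp1b1, Prkca, Rims2, Tmem255a and Dkk3 followed, each at least 1.69 times higher in members in every library. Mgst3, a microsomal glutathione transferase gene, was lower, at 243, 207, 170 and 182 CPM in members and 613, 532, 380 and 411 CPM in relatives. Clec2l, Litaf, Marcksl1, Kcnc4, Vgf, Psmb8, Ifitm2, Slc29a1 and Cyp1b1 were also at least 1.58 times lower in members. The 2 protein kinase C genes Prkca and Prkcb, which encode calcium-dependent kinases, were both among the 10 genes that set members highest above the relatives.

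Members also differed among themselves. In cells thinned to 5000 UMIs, 2605 genes were found in 20% to 80% of the members of every library, with a median lowest Fano factor (variance over mean, 1 for counting noise alone) of 0.97. The highest values belonged to Apoe, with a Fano factor of at least 31.4 in each library, and Fabp7, at least 8.30, which are genes of satellite glial cells. Pcp4, a calmodulin-binding protein gene, followed at 5.90 or more, then Dbi at 5.64, another transcript abundant in glia, and Cartpt at 5.54. Atp1b1, Hspa1a, Thy1, Sparc and Dnajb1 completed the first 10, with lowest values from 2.30 to 2.86.

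Satellite glial RNA was therefore measured in the members before conditions were compared. The summed level of 16 satellite glial markers was 3918, 3583, 2633 and 3000 CPM in members, with all 16 detected, and was lower in both CCI libraries than in both sham libraries. Members with at least 2 Fabp7 UMIs per 10000 made up 34.8%, 33.7%, 26.6% and 27.4% of members and held 10618, 9743, 10231 and 10572 CPM of these markers, against 379, 448, 332 and 358 CPM in the remaining members. The immune markers summed to 38.2, 11.4, 20.5 and 38.0 CPM, with 14 of 15 detected, in no order by surgery. The shares, the comparison of CCI with sham in members and the comparison with the Avpr1a relatives were repeated without the Fabp7-rich cells, while the comparison with the other cells was not.

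Among cells at or under the Sprr1a limit, the members' share was 16.9% in the male and 18.3% in the female sham library, with exact 95% binomial intervals of 15.8% to 18.2% and 17.4% to 19.3%. In the CCI libraries it was 15.2% (interval 13.5% to 17.1%) and 14.2% (interval 12.7% to 15.8%). Both CCI libraries lay below both sham libraries, a difference of -2.92 percentage points between group means. The exact two-sided permutation test over libraries gave p = 0.33, which is the smallest value that 2 against 2 libraries allow. Among all filtered cells the share was 16.6%, 17.7%, 7.21% and 6.95%, in a setting where 1.84%, 3.60%, 52.6% and 51.1% of cells exceeded the Sprr1a limit. Among cells with no Sprr1a UMI it was 17.1%, 18.4%, 18.0% and 16.5%, and the groups overlapped. The whole rule was also applied after thinning to 5000 UMIs, at an equal depth of all cells. Its Avpr1a and Sprr1a conditions then used thinned counts as well, so it chose a different set of cells. Of the Avpr1a relatives, 27.7%, 28.9%, 23.5% and 23.8% kept an Avpr1a UMI after thinning. The shares of members by this thinned rule were 4.08%, 4.93%, 4.30% and 4.38%, and the groups overlapped again. A requirement of at least 4 of the 5 genes gave 8.21%, 9.38%, 9.03% and 9.37% and turned the difference to 0.409 points. Over the cells at or under the Sprr1a limit, the share of the Avpr1a relatives was 7.25%, 7.31%, 9.41% and 11.2%, higher in both CCI libraries. Cells that met the rest of the rule but had an Avpr1a UMI numbered 219, 341, 129 and 200. Whether cells crossed the Avpr1a condition between surgeries was not tested. Intervals cover counting error only.

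**Figure D2:**
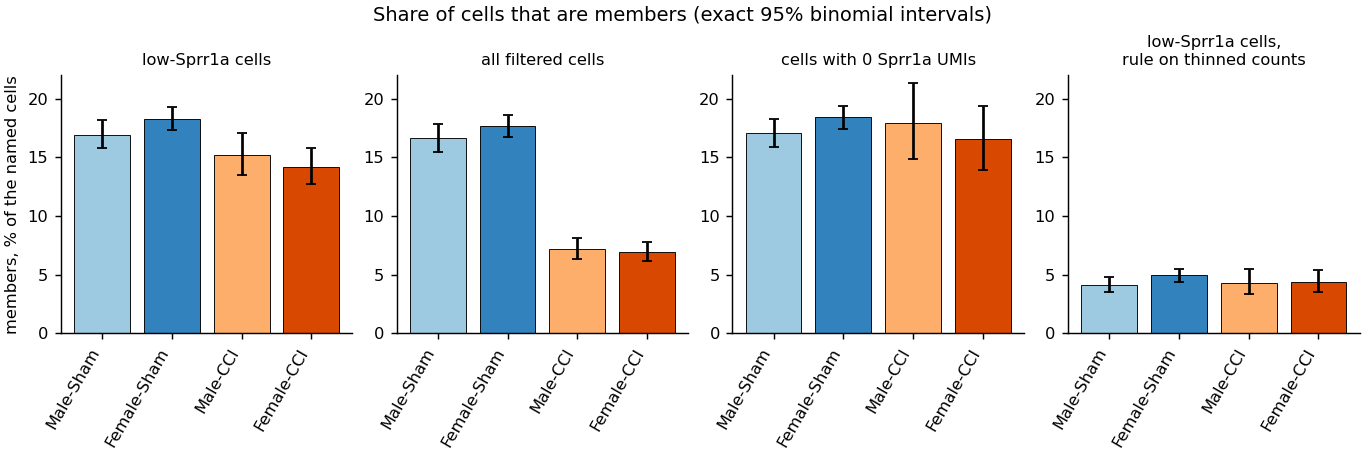
Members as a percentage of cells in each library, over 4 choices of denominator or counts, with exact 95% binomial intervals. Sham and CCI libraries stand apart where all filtered cells form the denominator (16.6% and 17.7% against 7.21% and 6.95%) and overlap where cells had no Sprr1a UMI or were thinned.

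The first question on the condition was whether the genes that define the members changed. So that the rule did not enter the comparison, each gene was tested in cells chosen without it. Kcnk3 was at 120, 126, 174 and 218 CPM in cells chosen without Kcnk3, and rose by 0.67 on the log2 scale (SE 0.09, edgeR quasi-likelihood adjusted p = 0.00062). Npy1r was at 360, 403, 481 and 559 CPM, 0.44 higher (SE 0.08, adjusted p = 0.0034), a difference under the size of 0.5 required for a call. Trpa1 was at 41.8, 54.5, 107 and 179 CPM, and both CCI libraries lay above both sham libraries. Its difference of 1.56 (SE 0.41) did not pass the test (adjusted p = 0.212), and neither did that of Ccl21a, 0.95 (SE 0.32, adjusted p = 0.228), a chemokine gene at 19.1, 28.3, 40.1 and 53.1 CPM. Sstr2 was tested in the wider set of 4223 cells that met the remaining conditions, where it fell by 0.69 (SE 0.06, adjusted p = 0.00011), from 76.9 and 69.5 to 46.3 and 44.6 CPM. Cartpt was at 1010, 1167, 890 and 859 CPM, with a difference of -0.32 (SE 0.08, adjusted p = 0.0198), under the size for a call. Of the 4 receptor and channel genes, Kcnk3, Npy1r and Trpa1 thus stood higher in CCI, with only Kcnk3 called, and Sstr2 fell. Whether the mix of classes in the wider set used for Sstr2 differed between surgeries was not tested. In the other cells at or under the Sprr1a limit Kcnk3 was at 27.3, 29.7, 41.8 and 49.1 CPM. Npy1r was at 59.0, 82.9, 99.6 and 139 CPM there, so both were also higher in CCI outside the members.

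In the members as defined, 418 of 13492 genes tested were called between CCI and sham (3.1%), at an adjusted p under 0.05 and an absolute log2 difference over 0.5, with 243 higher (1.8%) and 175 lower (1.3%) in CCI. The same thresholds called 5.59% of genes in the Avpr1a relatives (2.95% higher, 2.64% lower) and 5.29% in the other cells (3.85% higher, 1.44% lower). They called 3.29% in members with no Sprr1a UMI (1.68% higher, 1.62% lower) and 2.84% in members without the Fabp7-rich cells (1.69% higher, 1.15% lower). In all 418 both CCI libraries lay on the same side of both sham libraries, as they did for 55.6% of all genes tested. The median difference over all genes was -0.0043, and 272 of the 418 called genes were under 20 CPM in both groups. Since the libraries were pools, the p-values measure the spread between pooled libraries of different sex.

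Among called genes of at least 20 CPM the largest rises included Ifit3 and Isg15, of the interferon-stimulated list, and Eif2ak2, an antiviral gene outside that list. Ifit3, which encodes an antiviral protein with tetratricopeptide repeats, was at 2.81, 3.54, 19.6 and 20.7 CPM and rose by 2.64 (SE 0.14, adjusted p = 4.45e-07). Isg15, a ubiquitin-like modifier, was at 8.54, 8.90, 17.7 and 28.1 CPM, a rise of 1.38 (SE 0.21, adjusted p = 0.0137). Eif2ak2 encodes the double-stranded RNA-activated kinase PKR and went from 18.1 and 16.6 to 36.3 and 39.9 CPM, a rise of 1.13 (SE 0.09). In each of these the sham libraries were close together and well below both CCI libraries.

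The other large rises belonged to signalling and membrane genes. Tifa, an adaptor of the NF-kappa-B pathway, had 50.3, 66.5, 130 and 134 CPM and rose by 1.17 (SE 0.15, adjusted p = 0.0174). Alkal2, a ligand of the receptor kinases ALK and LTK, had 27.1, 26.2, 46.8 and 64.0 CPM and rose by 1.05 (SE 0.14, adjusted p = 0.0083). Nos1, neuronal nitric oxide synthase, had 14.8, 14.7, 27.2 and 29.7 CPM, a rise of 0.94 (SE 0.09). Ggt5, Abca1, Crtac1 and Adamts1 rose by 1.04, 0.89, 0.89 and 0.89, and Abca1, which exports cholesterol from cells, went from 19.6 and 18.9 to 33.1 and 38.6 CPM.

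The largest falls included metallothioneins and genes of lipid synthesis. Mt3, a metal-binding protein of neurons, was at 1783, 1875, 1102 and 958 CPM and fell by 0.84 (SE 0.07, adjusted p = 4.58e-05). Mt1 was at 315, 372, 159 and 200 CPM and fell by 0.95 (SE 0.14, adjusted p = 0.0162). It was also abundant in satellite glial-like cells, at 3005, 4383, 1589 and 2156 CPM, and without the Fabp7-rich members it fell by 0.58 in members. Mvd, which makes isopentenyl diphosphate in the cholesterol pathway, was at 57.1, 64.0, 34.7 and 29.2 CPM and fell by 0.93 (SE 0.09, adjusted p = 0.00025). Acsl3, a long-chain acyl-CoA synthetase, fell by 0.82, from 139 and 138 to 82.7 and 75.5 CPM. Erg28, a scaffold of sterol enzymes, fell by 0.79, from 83.1 and 85.5 to 49.9 and 48.4 CPM. Atpaf2 and Usmg5, which act in the assembly of mitochondrial ATP synthase, fell by 0.92 and 0.81, and Hjurp fell by 0.81.

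Ctxn3 and Grik1, the remaining pair among the 10 largest falls, are more abundant in other neuron classes. Ctxn3 was at 28.7, 23.8, 11.8 and 11.7 CPM in members, a fall of 1.16 (SE 0.11), and at 231, 188, 146 and 136 CPM in the other cells. Grik1, a kainate receptor subunit, was at 23.8, 28.8, 15.1 and 13.9 CPM, a fall of 0.87 (SE 0.12). The 15% of cells with the highest doublet scores in each library included 14.6%, 15.4%, 11.2% and 6.60% of members. When those cells were left out, Ctxn3 stood at 0.025 and Grik1 at 0.44 above sham on the log2 scale and neither was called. Of the 20 genes named here, 13 were called in every alternative run, and the calls of Alkal2, Isg15, Tifa, Mt1 and Hjurp were lost in at least 1 run besides those of Ctxn3 and Grik1. Without the Female-CCI library the called genes numbered 226 in place of 418.

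**Figure D3:**
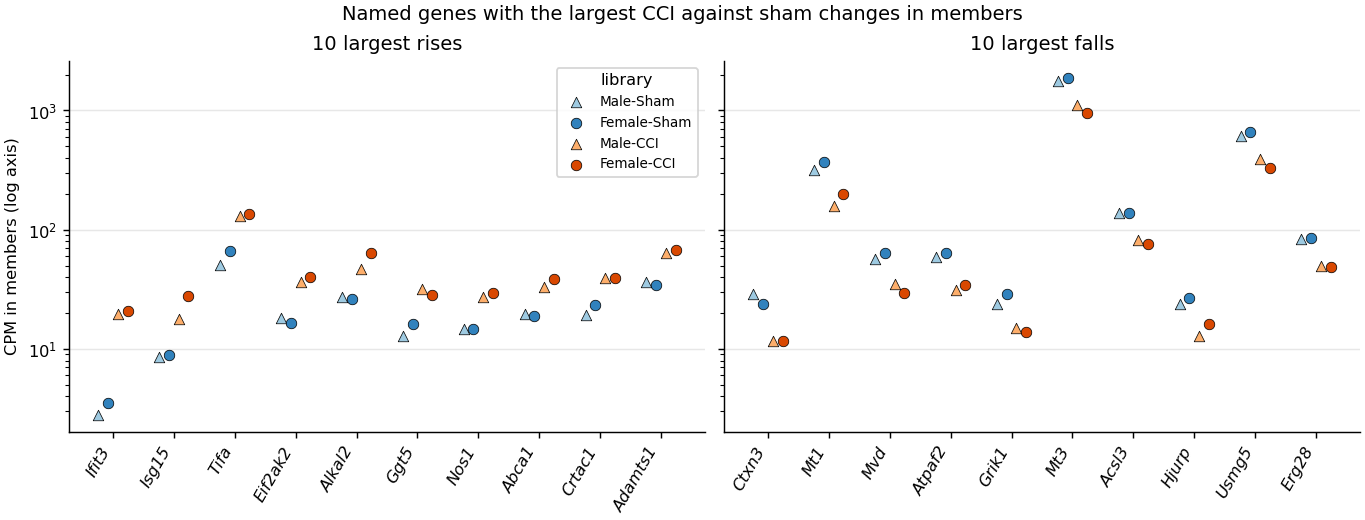
Levels in members of the 10 called genes with the largest rises and the 10 with the largest falls among those of at least 20 CPM, on a log axis, with 1 point for each library (triangles male, circles female). In every gene both CCI libraries lie on the same side of both sham libraries, as the choice of genes required, and Ifit3 shows the widest gap, from 2.81 and 3.54 to 19.6 and 20.7 CPM.

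Interferon-stimulated genes are switched on when interferon receptors activate a complex of transcription factors that binds a DNA element known as the ISRE. Of 26 listed genes that could be tested, 13 rose and none fell at the call threshold, with 25 of 26 positive and a median of 0.94 against -0.0043 over all genes. The share called higher was 1.8% over all genes. Beside Ifit3 and Isg15, Rsad2, which encodes the antiviral enzyme viperin, went from 3.23 and 4.08 to 12.9 and 13.4 CPM, a rise of 1.82 (SE 0.15, adjusted p = 3e-05). Ifit3b, a neighbour and close copy of Ifit3 on chromosome 19 with which reads may be shared, rose by 1.94 (SE 0.21), from 1.85 and 1.61 to 6.47 and 6.83 CPM. Usp18, which removes ISG15 from proteins, rose by 2.29 (SE 0.36, adjusted p = 0.0109), and the RNA sensor genes Ifih1 and Ddx58 rose by 1.26 and 0.59.

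Ifi202b, a DNA-binding member of the interferon-inducible p200 family, had no UMI among members of either sham library and 55 UMIs in the CCI members, at 2.46 and 2.69 CPM. Set against 3 counts over both sham libraries, it was at least 51.1-fold higher. The gene was also without a UMI in the other cells of both sham libraries. Mx1, Irf7, Parp14, Gbp2 and Gbp3 were the other called members of the list. Ifit1, at 22.9, 41.3, 115 and 166 CPM, had a difference of 2.11 (SE 0.50) and did not pass the test (adjusted p = 0.178).

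Without the Fabp7-rich members 13 listed genes were again called higher and the median was 0.80, while Ifit3 rose by 2.92, Isg15 by 2.56 and Rsad2 by 1.94. In the relatives 20 of 27 and in the other cells 16 of 28 listed genes were called higher. Over all genes 2.95% were called higher in the relatives and 3.85% in the other cells. Satellite glial-like cells of the CCI libraries held 215 and 132 CPM of Ifit3, against 17.9 and 30.3 CPM in sham, so the transcript was also present in cells of another type. In members with no Sprr1a UMI, Ifit3 rose by 3.26 and 16 listed genes were called higher. In cells thinned to 5000 UMIs 7 genes of the list were called.

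Promoter sequences are shown for 4 of the called genes because the ISRE can be read in them. They are the 250 bases before the annotated start in the GRCm38.p6 build, from RefSeq, written from 5' to 3' on the strand of the gene. Capitals mark matches to the ISRE core, searched as GAAA, any 2 bases and GAAA on either strand (TTTC, any 2 bases and TTTC on the opposite one), where overlapping matches run together.
Ifit3, chr19:34583279-34583528, plus strand: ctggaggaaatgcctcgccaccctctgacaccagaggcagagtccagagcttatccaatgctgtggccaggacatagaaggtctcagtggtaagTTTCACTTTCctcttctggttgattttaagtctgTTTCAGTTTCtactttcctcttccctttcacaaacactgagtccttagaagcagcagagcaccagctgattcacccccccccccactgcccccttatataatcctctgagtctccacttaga
Isg15, chr4:156200819-156201068, minus strand: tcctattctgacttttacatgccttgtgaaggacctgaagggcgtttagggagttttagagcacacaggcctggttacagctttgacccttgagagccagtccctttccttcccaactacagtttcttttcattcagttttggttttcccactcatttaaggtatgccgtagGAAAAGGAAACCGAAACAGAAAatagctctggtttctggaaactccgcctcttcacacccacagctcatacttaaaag
Rsad2, chr12:26456453-26456702, minus strand: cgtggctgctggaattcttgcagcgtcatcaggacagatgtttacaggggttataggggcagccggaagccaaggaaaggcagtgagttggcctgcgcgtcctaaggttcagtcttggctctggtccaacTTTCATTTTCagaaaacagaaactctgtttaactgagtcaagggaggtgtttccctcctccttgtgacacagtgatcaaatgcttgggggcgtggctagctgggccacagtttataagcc
Gbp2, chr3:142620413-142620662, plus strand: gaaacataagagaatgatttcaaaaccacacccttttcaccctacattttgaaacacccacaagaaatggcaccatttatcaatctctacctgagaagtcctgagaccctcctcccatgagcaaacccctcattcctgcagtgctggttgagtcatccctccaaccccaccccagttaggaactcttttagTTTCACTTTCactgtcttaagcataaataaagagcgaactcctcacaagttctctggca

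Ifit3 held 2 such matches, Isg15 held 3 that overlap, and Rsad2 and Gbp2 held 1 each. Promoter sequences were found for 10 of the 13 called genes of the list, and 6 of the 10 held a match, the others being Ifit3b and Gbp3. Of the listed genes that were tested and not called, 3 of 10 with a sequence held a match. Over all 10335 tested genes with a sequence, 3.10% did. A match is a description of these letters.

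Injury and regeneration genes are those known to rise in DRG neurons after axon damage. Of 43 tested, 18 rose and none fell, with a median of 0.39, although cells high in Sprr1a were outside the rule. In the relatives 15 of 39 and in the other cells 28 of 46 rose. The share called higher over all genes was 1.8% in members, 2.95% in the relatives and 3.85% in the other cells. Most of the called genes were scarce. Sox11, a transcription factor of axon regrowth, was the most abundant after Bdnf, at 56.2, 61.5, 102 and 97.9 CPM, a rise of 0.76 (SE 0.07, adjusted p = 4.05e-05). Ecel1, an injury-induced endopeptidase gene, went from 1.62 and 1.22 to 5.74 and 6.54 CPM, a rise of 2.12 (SE 0.23). Itga7, a laminin-binding integrin gene, rose by 0.77, from 10.4 and 11 to 18.7 and 18.2 CPM. Leaving out 1 library gave 10 to 12 called genes of the list, with 10 without the Female-CCI library, and thinned cells gave 2. Npy and Crh, peptide genes, had 1 and 3 UMIs in sham members and 34 and 18 in CCI members, ratios of 94.8 (95% counting interval 15.9 to 3853) and 16.7 (4.88 to 88.7).

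Bdnf, described below, was called higher, but other abundant members of the list were not called. Atf3, the stress-responsive transcription factor, was at 273, 257, 279 and 266 CPM (difference 0.03, SE 0.06). Gal, the galanin precursor, was at 971, 913, 823 and 875 CPM in members (difference -0.16, SE 0.06, adjusted p = 0.131), and at 239, 273, 460 and 602 CPM in the other cells. Gap43, a growth cone protein, was 0.39 higher and Jun 0.23 higher, both under the size for a call. Sprr1a itself, held by the rule at a low level, stood at 1.04, 1.61, 20.2 and 25.2 CPM, and a Sprr1a UMI was found in 58.1% and 56.2% of CCI members, and in 8.71% and 11.1% of them after thinning to 5000 UMIs. In satellite glial-like cells of the CCI libraries, which should lack the gene, 24.3% had a Sprr1a UMI in each library, at medians of 5180 and 4416 UMIs per cell. The rule capped Sprr1a in members and not in these cells, so the shares cannot be set against each other. With all members holding a Sprr1a UMI left out, 12 injury genes were called higher.

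Genes of cholesterol synthesis and uptake were listed after the falls of Mvd and Erg28 had been seen, so their count is a description. Of 24 genes 8 fell and none rose at the call threshold, all 24 differences were negative, and the median was -0.39. Over all genes 1.3% were called lower in members, 2.64% in the relatives and 1.44% in the other cells. The called genes included Mvd, Erg28, Dhcr7, Insig1, Msmo1, Idi1 and Acat2. Dhcr7, the last enzyme of one branch of the pathway, went from 43.0 and 49.0 to 27.7 and 26.6 CPM, a fall of 0.77 (SE 0.09). Msmo1 fell by 0.60 (SE 0.07), from 278 and 288 to 200 and 174 CPM. In the Avpr1a relatives none of the 24 was called and in the other cells 6 fell, and the difference of change between members and relatives was not called for Mvd (-0.44, SE 0.12, adjusted p = 0.0728). All 3 metallothionein genes, Mt1, Mt2 and Mt3, fell, a list also made after values had been seen. Without the Fabp7-rich members Mt2 stood at -0.32 in place of -0.79 and was not called (adjusted p = 0.222), and it was not called in thinned cells either.

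Over all genes tested 3.1% were called, and the counts in the lists below stand beside that share. Of 13 tested neuropeptide genes 3 rose (Npy, Crh and Bdnf) and Sst was called lower, from 2.50 and 1.22 to 0.27 and 0.19 CPM. The sham level of Sst rested on single cells, since 1 Male-Sham member held 60 of the 65 UMIs and 1 Female-Sham member 37 of 41, and the call held in 5 of 8 alternative runs. Bdnf, a neurotrophin listed with them, was at 223, 239, 295 and 371 CPM, a rise of 0.52 (SE 0.11, adjusted p = 0.0224) that was no longer called when either sham library or the Female-CCI library was left out and held in 7 of 15 alternative runs. Calca, Tac1, Calcb, Adcyap1 and Nmb differed by at most 0.11 in size and were not called. Of 15 granule genes, Vgf, a granule protein precursor, rose by 0.73 (SE 0.07), from 93.6 and 101 to 155 and 170 CPM, while Pcsk1n, a prohormone convertase inhibitor, fell by 0.53 (SE 0.07), from 4031 and 4036 to 3013 and 2616 CPM, and Cadps2 fell by 1.11, a call that held in 5 of 13 runs. Of 30 vesicle release genes, Slc17a7, Rab3b and Sv2b fell. Sv2b held in 5 of 15 runs, and Slc17a7 was not called without the highest doublet scores or without the Female-CCI library.

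Ion channel genes were called in 4 of the 6 lists. No gene of 12 mechanical, acid and ATP channels was called, with Tmem63b at 128 to 141 CPM and the touch channel gene Piezo2 at 61.8, 65.4, 69.7 and 52.7 CPM, and none of 16 calcium channel genes was, with Cacna2d1, the gabapentin-binding subunit, 0.29 higher (SE 0.06, adjusted p = 0.012). Of 11 tested thermal and TRP channel genes 1 fell and none rose. Of 14 sodium channel genes Scn4b fell by 1.61, and the pain-related channels Scn9a, Scn10a and Scn11a, at 137 to 263 CPM, were not called. Of 28 voltage-gated potassium channel genes Kcns1 and Kcnip2 fell, both under 10 CPM, and of 24 leak and other potassium channel genes the pacemaker channel gene Hcn4 rose by 0.52 and Kcnj3 fell by 0.70. The calls of Kcnip2, Hcn4 and Kcnj3 held in 7 of 14, 10 of 15 and 6 of 15 alternative runs, and all 3 were lost with DESeq2 and without the Female-CCI library.

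Receptors and their regulators were called in each of 5 lists. Of 49 G protein-coupled receptor genes only the serotonin receptor gene Htr4 was called, with 54 UMIs in sham members and 3 in CCI members, a ratio of 0.155 (0.031 to 0.477), a call that held in 5 of 9 runs. Of 17 RGS genes, which speed the shutdown of G protein signals, Rgs4 fell by 0.73 (SE 0.07), from 131 and 118 to 75.7 and 74.6 CPM, and stood at 0.022 without the highest doublet scores, while Rgs6 and Rgs9 rose by 1.48 and 0.54. Rgs6 held in 14 of 15 runs and Rgs9 in 6 of 15. Of 28 ligand-gated receptor genes Grik1 and Gabra2, a GABA receptor subunit, fell. Of 24 trophic factor receptor genes Gfra4 fell by 0.60 and Gfra1 rose by 0.79, and of 24 cytokine receptor genes Tnfrsf12a rose by 0.64, a call that held in 6 of 15 runs and was lost with DESeq2 and with any 1 library left out. Ret and Gfra3 were at 161 to 313 CPM and were not called.

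Other lists bear on stress, growth and cell composition. None of 20 immediate early genes and none of 22 heat shock and stress genes was called, with Jund at 837 to 874 CPM and Hspa8 at 2503 to 2680 CPM, and neither was any of 6 pan-neuronal markers. Foxp2 rose among 34 sensory neuron transcription factors, Tubb6 rose and Marcksl1 fell among 31 growth cone genes, and Psmb8 rose among 14 MHC class I genes. These calls held in 7 of 15 runs for Foxp2, 7 of 13 for Tubb6, 11 of 15 for Marcksl1 and 9 of 15 for Psmb8. Of 79 cytosolic ribosomal protein genes 5 rose, led by Rpl17, Rpl12 and Rpl23a at 0.56 to 0.58, and 2 fell. Of 13 mitochondrially encoded genes mt-Nd3, mt-Nd2 and mt-Nd1 rose and mt-Nd4l fell, and of 79 nuclear oxidative phosphorylation genes Ndufa3 and Cox7a1 fell, with Cox7a1 called in 7 of 15 runs.

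Marker lists of other cells moved as follows. Of 16 satellite glial markers 2 fell, Dbi among them, and no call was made among 5 Schwann cell, 8 immune and 3 vascular and fibroblast markers tested. Red blood cell markers were too scarce to test. Mrgprd and Grik1 were called lower among 3 NP2-like markers, but without the highest doublet scores they stood at 1.00 and 0.44 above sham. Col25a1 and Dcn were called lower among 4 PEP2-like markers, and Dcn stood at 0.091 when 4 of the 5 genes were required and held in 9 of 15 runs. Comp rose among 2 PEP1-like markers. Sst, with the limit given above, was called lower among 5 NP1-like markers, Foxp2 was called higher among 3 PEP5-like markers, and NP3-like, cLTMR-like and NF-like markers had no call. Dcdc2a, a marker of the Avpr1a relatives, fell by 0.63.

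**Figure D4:**
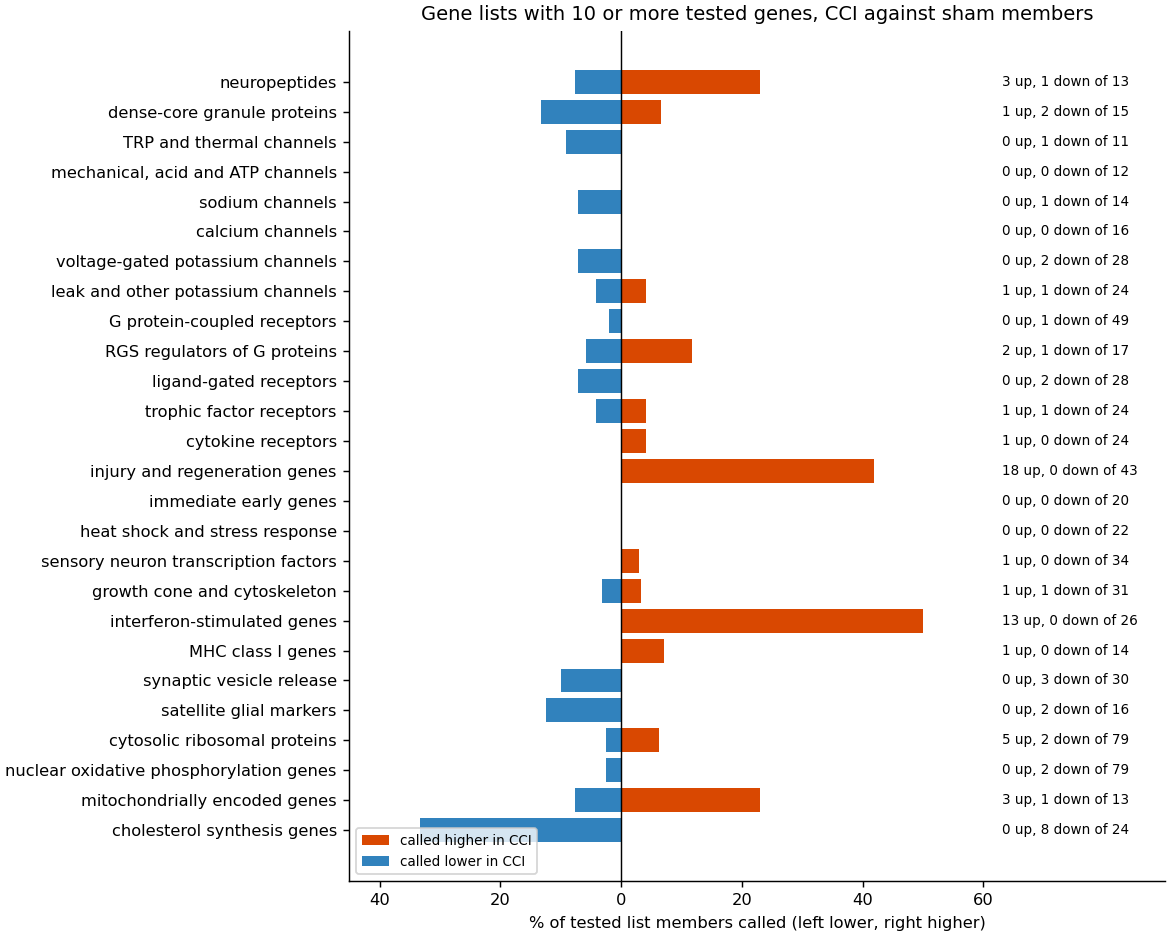
Percentage of the tested genes of each list called higher (right) or lower (left) in CCI members than in sham members, for lists with 10 or more tested genes. Interferon-stimulated genes (13 of 26) and injury genes (18 of 43) have the highest shares called higher, and cholesterol synthesis genes (8 of 24, listed after values were seen) the highest share called lower. Over all genes tested 1.8% were called higher and 1.3% lower.

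To see where the members differed from the Avpr1a relatives, the change after CCI was compared between the classes in 1 model with a term for each library. It differed for 93 of 13058 genes (0.712%), 49 with a more positive change in members (0.375%) and 44 with a more negative change (0.337%). Without the library term 8 genes were called.

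Serpinb1a, Pkib, Pcdh17 and Sphkap rose in the relatives. Serpinb1a, an inhibitor of leukocyte proteases, was at 19.5, 20.6, 57.7 and 36.7 CPM in members and at 11.1, 9.81, 92.5 and 71.1 CPM in relatives. It was thus higher in both CCI libraries in either class, and by less in members. The difference of changes was -1.77 (SE 0.12, adjusted p = 1.61e-09). Pkib, an inhibitor of protein kinase A, was at 57.5, 60, 65 and 58.1 CPM in members and at 18.8, 24.4, 48.2 and 54.6 CPM in relatives, a difference of -1.19 (SE 0.12). Pcdh17 and Sphkap rose in both classes and by less in members, with differences of -1.05 and -0.84. For Ifi27l2a, at 50.9, 57.0, 31.1 and 87.4 CPM in members, the difference was -1.03, while the 2 CCI libraries stood far apart in both classes. With members and relatives limited to cells without a Sprr1a UMI, the differences of Serpinb1a, Pkib and Pcdh17 were -0.84, -0.54 and -0.55 and none was called.

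Abi3bp, Acpp and Sncb fell in the relatives. Abi3bp, an extracellular matrix gene, was at 27.7, 22.6, 32.2 and 39.8 CPM in members, where it rose by 0.51, and at 5.78, 6.32, 2.78 and 3.66 CPM in relatives, where it fell by 0.89, a difference of 1.43 (SE 0.23, adjusted p = 0.00048). Acpp differed by 1.28 (SE 0.16) and was at 32.1, 32.3, 25.6 and 15.7 CPM in members. The NP2-like markers, of other neurons, summed to 36.7, 26.6, 3.51 and 9.75 CPM in relatives and to 36.7, 41.9, 21.2 and 19.8 CPM in members. Cells with the highest doublet scores made up 10.8%, 13.0%, 5.37% and 6.17% of relatives. The synuclein gene Sncb differed by 0.92 (SE 0.13), at 37.8, 31.5, 36.1 and 30.4 CPM in members and 35.9, 36.9, 19.6 and 17.2 CPM in relatives. Tnxb and Ifitm1 differed by 0.82 and 0.81. Each of the 10 genes lost its call in at least 1 alternative run. The calls of Ifitm1 and Tnxb held in 4 of 12 and 6 of 12 runs, and those of the others in 8 to 11.

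**Figure D5:**
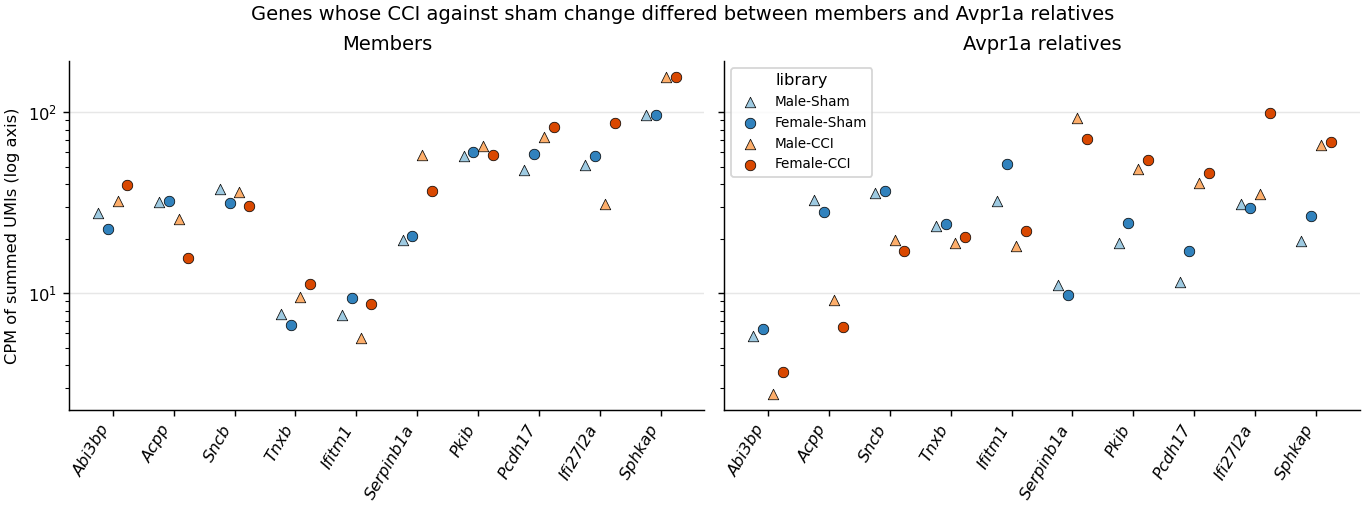
Levels, on a log axis, of the 10 named genes whose change after CCI differed between members (left) and Avpr1a relatives (right), with 1 point for each library (triangles male, circles female). Serpinb1a reaches 57.7 and 36.7 CPM in CCI members and 92.5 and 71.1 CPM in CCI relatives.

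Against all other cells at or under the Sprr1a limit, the change differed for 41 of 15729 genes (0.261%), 7 of them more positive in members (0.0445%) and 34 more negative (0.216%). The other cells were a mix of classes whose shares can differ between libraries. A change of that mix and a change within cells cannot be told apart here. This comparison was not repeated without the highest doublet scores. Sox11 rose by 0.76 in members and by 1.52 in the other cells, where it went from 36.4 and 43.0 to 111 and 121 CPM, a difference of -0.78 (SE 0.07, adjusted p = 0.00082). Kif22, a kinesin gene of the injury list, differed by -0.70 (SE 0.09), and Smim3 by -0.75 (SE 0.12). Ceacam10 and the vesicular glutamate transporter gene Slc17a7 had more negative changes in members, with differences of -3.19 and -3.10, both from under 7 CPM in sham members to under 1 CPM in CCI members. Both were abundant in the other cells, Ceacam10 at 50.3, 59.5, 33.3 and 37.1 CPM.

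On the positive side Ntm, a neuronal adhesion molecule, was at 8.77, 7.74, 17.1 and 14 CPM in members and differed by 0.77 (SE 0.11, adjusted p = 0.0063) from the change in the other cells, where it was at 25.6 to 30.4 CPM. Tle1, a transcriptional corepressor, differed by 0.54 (SE 0.07) and Abi3bp by 0.52 (SE 0.10). The Abi3bp call held in 1 of 7 alternative runs, and its difference was -0.055 in cells with no Sprr1a UMI. Ifit3, named here after its value was seen because it was under 20 CPM on average, rose by 2.64 in members and 1.46 in the other cells, a difference of 1.18 (SE 0.14, adjusted p = 0.0036), whereas its difference from the relatives was 0.21 (SE 0.19, adjusted p = 0.827). Each of the 8 genes chosen by the rule lost its call in at least 1 alternative run, and without the Female-CCI library 8 genes were called in place of 41.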

How the data were processed

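Droplet single-cell RNA sequencing (10x Genomics 3' v3 chemistry) of sorted EGFP-positive DRG cells was deposited by the authors as filtered matrices of UMI counts for 4 libraries, not normalized, made with Cell Ranger on mm10. The submitters' processing notes name version 2.1.1 and the matrix headers name 3.0.2. The deposited counts of gene identifiers with the same symbol were summed (35 symbols).

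Cells passed at 1500 genes, 5000 UMIs and 10% mitochondrial UMIs. Doublets were not removed beforehand, since Scrublet (scanpy 1.11.5) called 0, 200, 1 and 0 cells by its own threshold, and the 15% with the highest scores were left out as an alternative. UMI counts were summed per library and class. Sums were compared with edgeR 4.0.16 (R 4.3.3; filterByExpr, TMM, robust quasi-likelihood fit, Benjamini-Hochberg adjustment over all genes), with DESeq2 1.42.0 as an alternative. SEs were derived from the F statistic. The differences of change were fitted over 8 sums with library, class and class-by-surgery terms. Calls needed an adjusted p under 0.05 and an absolute log2 difference over 0.5, and the 8 genes of the rule were left out of counts. In simulated counts for the members, 82% of 100 genes changed by 1 on the log2 scale and 96% of 100 changed by 2 were called, with 6 false calls among 13499 genes. The simulated counts were independent and held no effect of litter, sex or class mix. They give no rate for changes near the 0.5 threshold or for false calls from such effects.

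The members and the gene lists were chosen with earlier results of these data known. Named genes were the 10 largest rises and falls among called genes of at least 20 CPM whose groups did not overlap, up to 4 called genes per list by adjusted p (otherwise the 2 most abundant), 5 in each direction for each difference of change at 20 CPM or more, the genes with the highest lowest ratio between classes at 50 CPM or more (1 CPM added), and the 10 most variable. Other members of lists were named after their values were seen. Predicted genes were counted and not named. Satellite glial-like cells were those with at least 500 UMIs of Fabp7 and Apoe together per 10000, with no minimum on total UMIs. Total deposited UMIs were 195684124 to 237069156 per library. Alternatives were DESeq2, other size factors, sex as a block, fits that kept genes with low counts, stricter cell rules, thinning to 5000 UMIs, and leaving out each library. Some genes are not reported here.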

Additional observations from a re-analysis of the deposited data

Results flagged for a closer look

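Each of the following genes was called in the main run of the test of the difference of changes (log2 scale, edgeR). The test set the change after CCI in members against that in the class compared. None of them kept its call in every alternative run. Against the Avpr1a relatives the difference was 1.43 for Abi3bp, 1.28 for Acpp, 0.92 for Sncb, 0.82 for Tnxb and 0.81 for Ifitm1. It was -1.77 for Serpinb1a, -1.19 for Pkib, -1.05 for Pcdh17, -1.03 for Ifi27l2a and -0.84 for Sphkap. Against the other cells it was 0.77 for Ntm, 0.54 for Tle1 and 0.52 for Abi3bp, and it was -3.19 for Ceacam10, -3.10 for Slc17a7, -0.78 for Sox11, -0.75 for Smim3 and -0.70 for Kif22. The Abi3bp and Ceacam10 calls against the other cells held in 1 of 7 and 4 of 7 alternative runs, and the others in 5 or 6. Against the relatives, the Ifitm1 and Tnxb calls held in 4 of 12 and 6 of 12 runs, and the others in 8 to 11.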

How the results depend on the processing

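The 418 genes called in members became 236 with DESeq2, 226 in cells thinned to 5000 UMIs and 226 to 488 with a library left out. With sex as a replicate block 590 were called. Male minus female deviations in sham and CCI correlated across genes (r = 0.23), and the labels match libraries across surgeries by sex but not by animal or litter. The 93 differences from the relatives became 20 with DESeq2, 39 in cells with no Sprr1a UMI, 52 without cells of shared barcodes (added after seeing the data), 166 without a filter on low counts, 8 with no replicate block and 50 to 131 with a library left out. The 41 differences from the other cells became 82 in cells with no Sprr1a UMI, 96 without shared barcodes and 8 to 113 with a library left out. The difference in share turned from -2.92 to 0.409 points at 4 of 5 genes. Directions turned without the highest doublet scores for Ctxn3 (0.025), Grik1 (0.44), Rgs4 (0.022) and Mrgprd (1.00), at 4 of 5 genes for Dcn (0.091), and without Sprr1a UMIs for Ifi27l2a against relatives (0.24) and Abi3bp against other cells (-0.055). Besides those whose own construction lowers depth or the number of cells, the cause was not tested. The 2 libraries per group limit precision, and the CCI sums rest on 241 and 288 members.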

Other observations

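The cells that met the rule but for a Sprr1a level above the limit numbered 1, 6, 20 and 23. In the 20 and 23 such cells of the CCI libraries Gal was at 7133 and 8276 CPM, against 823 and 875 CPM in the members, and Sox11 was at 719 and 681 CPM. Atf3 was at 764 and 687 CPM and Ecel1 at 116 and 89.1 CPM. The subtype genes were lower than in members, with Calca at 3893 and 4094 CPM, Tac1 at 1040 and 1073 CPM and Trpa1 at 16.3 and 16.5 CPM. Ifit3 was at 30.4 and 33.9 CPM. These cells were too few in the sham libraries for a comparison of surgeries.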
